A study of Mus musculus with 2 samples.

Results

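Glycogen is the branched glucose polymer that brain cells keep as a local reserve, and 9 genes of its metabolism were followed through the brainstem nuclei of a mouse model of Dravet syndrome. They are Gys1, Gyg, Gbe1, Pygb, Pygm, Phka1, Phkb, Ppp1r3c and Epm2a, 9 of the 25556 genes in the counts. They were listed by name for their known place in the pathway, in a study that also assayed glycogen in the same model.

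Glycogen is begun on glycogenin, lengthened by glycogen synthase and branched by the branching enzyme. It is broken down by glycogen phosphorylase, which phosphorylase kinase switches on and which protein phosphatase 1, held at the particle by targeting subunits, switches off. In the adult brain most glycogen is held by astrocytes, and the lack of laforin, the phosphatase encoded by Epm2a, causes Lafora disease, an epilepsy with glycogen-like deposits.

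Single-nucleus RNA-seq was made from the brainstem of 1 WT and 1 HET mouse, both female, on a C57Bl6 background and taken at postnatal day 41. HET mice carry the Scn1aA1783V/WT genotype, a loss-of-function missense change of 1 allele of the sodium channel gene Scn1a, and were bred from a male with a floxed stop before the A1783V allele and a female with Sox2-Cre, which acts in the early embryo and so in all tissues. WT mice were littermates without the change, neither mouse was treated, and the HET mouse had outlived the weeks in which many HETs die. With the 10x 3′ v3.1 chemistry RNA molecules were tagged with unique molecular identifiers (UMIs), and distinct UMIs were counted.

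The WT library held 9259 nuclei and 70301390 UMIs, and the HET library 9022 nuclei and 66176778 UMIs, with medians of 5456 and 5646 UMIs per nucleus. Of the 18281 nuclei, 23 barcodes occurred in both libraries, and all nuclei were kept. Scn1a stood at 380 CPM (UMIs divided by all UMIs of the library and scaled to 1e+06, 26726 UMIs) in WT and 420 CPM (27823 UMIs) in HET, which does not check the labels, since reads from the 3′ end do not show the changed base. Cell types were those of the deposited clusters, of which 12 of 16 held at least 30 nuclei in each library. The astrocyte cluster, astro, held 609 WT and 709 HET nuclei and had the highest level of 4 of the 5 astrocyte markers in both libraries among these 12 clusters, while the last, Slc1a3, was higher in the fibroblast cluster. A reference label of the same cell type was given to 1288 of 1318 nuclei in astro and 4131 of 4149 in the oligodendrocyte cluster. It was given to 209 of 344 in the endothelial cluster, 108 of 405 in the microglial cluster and 40 of 266 in the fibroblast cluster. In the ependymal cluster epend.1, 88 of 174 had an epithelial label.

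With 1 mouse per genotype, differences between genotypes have no replicate check and no p-value is given. Levels are in CPM and differences between genotypes are log2 ratios, with HET divided by WT. The 95% intervals in brackets are exact Poisson or binomial intervals that cover counting error only. A gene was counted as past the threshold when it differed by more than 1.5-fold, among genes with at least 200 UMIs over both libraries, or at least 20 within a cluster.

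The promoter sequences of 3 members are shown because their transcripts carry the main findings below. Ppp1r3c and Pygm were the members with the largest share of their UMIs in astrocytes, and Phka1 had the interval furthest from 0 there when the genotypes were compared. Each is 300 bases of the RefSeq promoter table (GRCm38.p6), from 250 bases before to 50 bases after the annotated start, read on the gene's own strand. Capitals mark the letters ACGTG (the hypoxia response element core), CACGTG (an E-box, which contains the former), TGACG (the cAMP response element half-site), TTGGC (the NFI half-site), CCAAT and GGGCGG (the GC box), each searched on both strands, so that a match on the other strand appears as its reverse complement.
Pygm, chr19:6384158-6384457, plus strand: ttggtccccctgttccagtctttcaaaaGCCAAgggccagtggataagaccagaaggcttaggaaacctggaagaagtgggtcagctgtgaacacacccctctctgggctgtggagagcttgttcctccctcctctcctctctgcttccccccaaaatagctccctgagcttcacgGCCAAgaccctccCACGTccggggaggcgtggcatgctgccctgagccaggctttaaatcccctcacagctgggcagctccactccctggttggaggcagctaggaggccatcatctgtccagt
Ppp1r3c, chr19:36736555-36736854, minus strand: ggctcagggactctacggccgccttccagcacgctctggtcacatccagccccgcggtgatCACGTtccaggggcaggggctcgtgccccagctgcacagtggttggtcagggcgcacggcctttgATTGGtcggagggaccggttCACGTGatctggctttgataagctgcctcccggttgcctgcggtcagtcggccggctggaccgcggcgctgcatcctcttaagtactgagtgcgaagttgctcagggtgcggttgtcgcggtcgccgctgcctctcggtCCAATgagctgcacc
Phka1, chrX:102644197-102644496, minus strand: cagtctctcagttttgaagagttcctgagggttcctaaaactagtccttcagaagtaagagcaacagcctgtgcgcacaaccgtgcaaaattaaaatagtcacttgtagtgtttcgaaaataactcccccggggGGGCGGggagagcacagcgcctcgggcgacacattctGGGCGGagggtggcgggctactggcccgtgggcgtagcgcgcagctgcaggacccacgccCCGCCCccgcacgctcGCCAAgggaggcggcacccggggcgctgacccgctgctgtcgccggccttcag
The ACGTG letters occurred 3 times in the Ppp1r3c window, where 2 of the matches lie on the 2 strands of the same CACGTG, and 1 time in the Pygm window. Of 32851 promoters of the same length, 19.6% held ACGTG, 7.15% CACGTG, 20.8% TGACG, 46.7% TTGGC, 37.4% CCAAT and 35.7% GGGCGG. A match says only that the letters are present in the window.

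In position, the members lie on separate parts of the genome (GRCm38), except that Pygm and Ppp1r3c share chromosome 19. They ran from 4.92 kb (Ppp1r3c) to 256 kb (Gbe1), and between 2.09% (Gbe1) and 55.4% (Ppp1r3c) of each gene was exonic. Phkb holds the sense-intronic transcript Hm629797, which has its own counts and could share reads with it, and Gys1 overlaps Ruvbl2 on the opposite strand.

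Of the 9 members, 5 had their highest level in the astrocyte cluster. They were the phosphorylase genes Pygb and Pygm, the phosphorylase kinase genes Phka1 and Phkb, and the phosphatase-targeting gene Ppp1r3c. For each of them the interval in astro lay above that of the next cluster. The other 4, Gys1, Gyg, Gbe1 and Epm2a, had their highest level elsewhere or were nearly even across clusters. The same 5 members led in astro when each nucleus was reduced to 1000 UMIs and the share of nuclei expected to hold a UMI was taken. These are descriptions, since the clusters were made from the same counts. Among the 26 other genes of the pathway with at least 200 UMIs, 5 were highest in astro as well. The share of all genes with their highest level in astro was not counted, nor the share whose interval there lay above the next. The 5 of 9 are therefore not read as a trait of these genes.

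**Figure D1:**
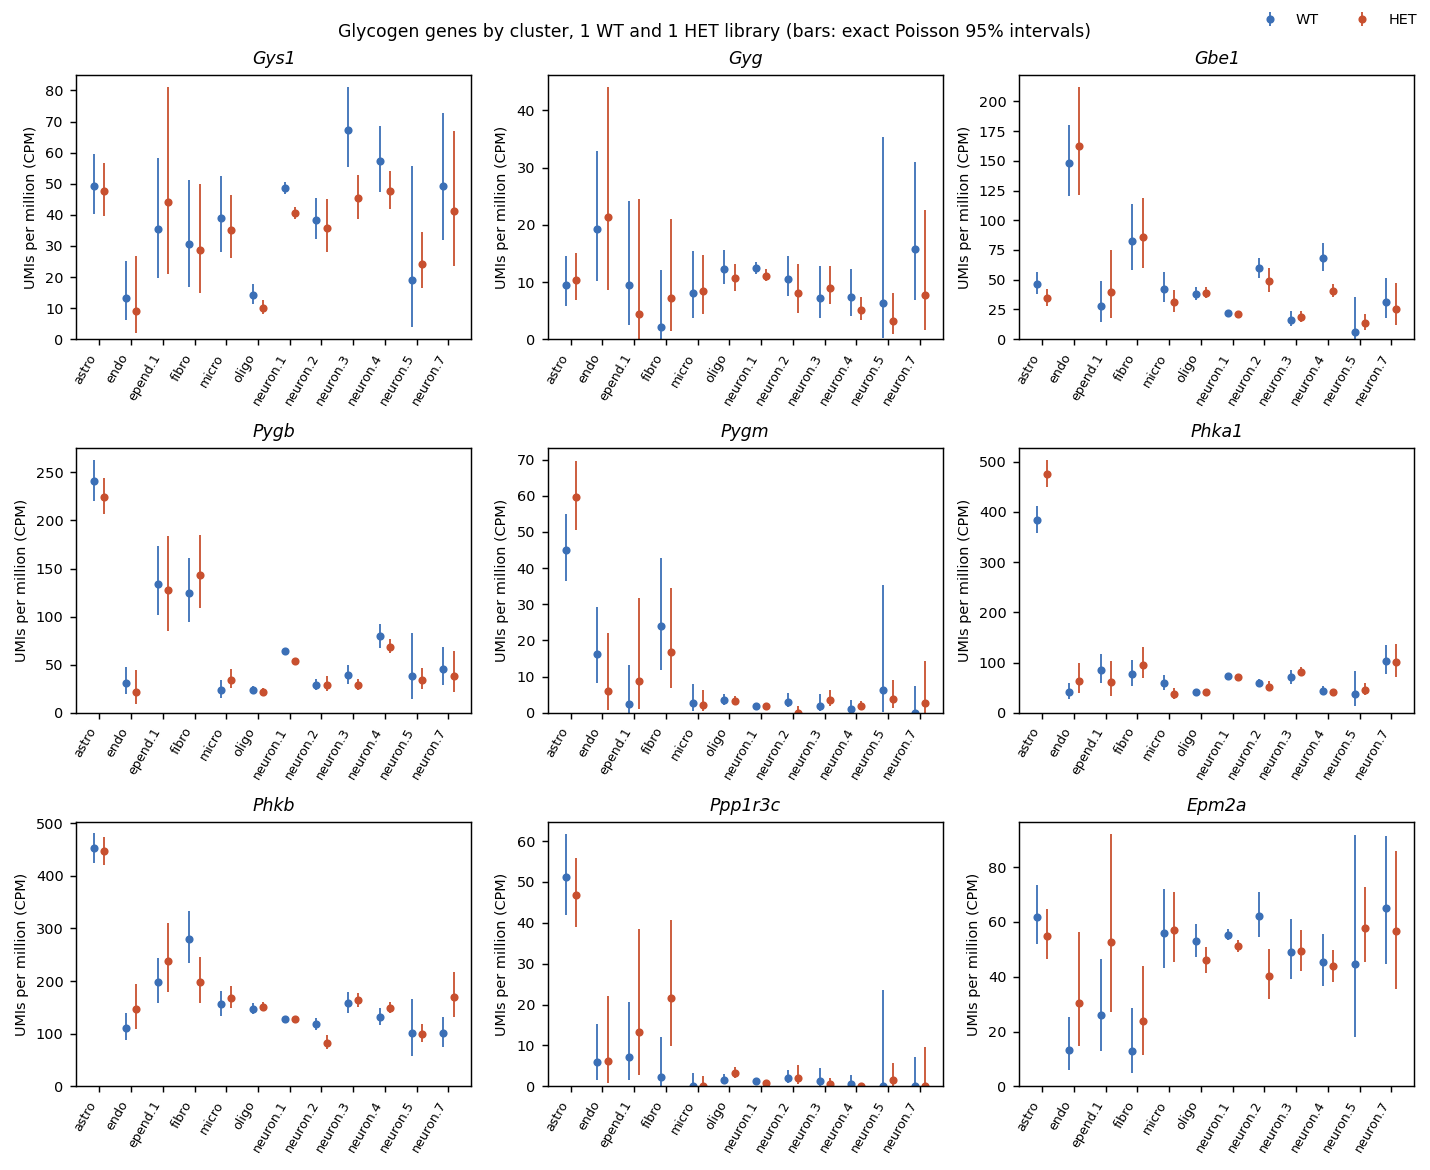
Levels of the 9 members (y axis, CPM) in the 12 larger clusters (x axis), for the WT (blue) and HET (red) library. Points are CPM and bars exact Poisson 95% intervals. Pygb, Pygm, Phka1, Phkb and Ppp1r3c peak in astro in both libraries, Gbe1 peaks in endo, and Epm2a is lowest in endo and fibro.

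Ppp1r3c encodes the subunit known as protein targeting to glycogen, which brings protein phosphatase 1 to the particle. In astro it had 108 UMIs in WT (51.1 CPM, 41.9 to 61.7) and 122 in HET (46.9 CPM, 38.9 to 56.0). Over all neuronal clusters it had 1.25 CPM in WT and 0.751 CPM in HET. The astrocyte level was thus 40.9 times the neuronal level in WT and 62.4 times in HET, and the cluster, with 3.01% of all UMIs in WT and 3.93% in HET, held 54.0% and 60.7% of the gene's UMIs.

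RNA set free from broken cells can give a gene a few UMIs in nuclei that do not make it. The neuronal level of Ppp1r3c was 2.44% of the astrocyte level in WT and 1.60% in HET, and that of the 5 astrocyte markers ran from 0.927% to 2.59% in WT and from 1.34% to 2.20% in HET. Slc1a2 gave the 2.59%, and it was itself at 600 CPM in the neuronal cluster neuron.6. Gja1 was the highest of the other 4, at 2.15% in WT and 2.20% in HET, so that Ppp1r3c lay above these 4 in WT and among them in HET. No expression in neurons is read from so low a level, and the source of these UMIs was not tested. In the microglial cluster Ppp1r3c had no UMI in 405 nuclei, which allows a share of up to 0.741% of nuclei with a UMI (3 counts of the total), though 108 of these nuclei carry a microglial label.

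Pygm encodes the muscle isoform of glycogen phosphorylase, which astrocytes also use. Its level in astro was 44.9 CPM (36.4 to 54.9, 95 UMIs) in WT and 59.6 CPM (50.6 to 69.7, 155 UMIs) in HET. Over all neuronal clusters it was 1.86 CPM in both libraries, so that astrocytes stood 24.2 times higher in WT and 32.0 times higher in HET. The fibroblast and endothelial clusters came next with 20.5 and 13.0 CPM over both libraries. A UMI of Pygm was found in 13.8% of WT astrocyte nuclei (11.2 to 16.8) and 18.9% of HET ones (16.1 to 22.0), at medians of 2963 and 3318 UMIs per nucleus. At 1000 UMIs per nucleus these shares became 4.21% and 6.02%, against 0.230% and 0.205% over all neuronal clusters.

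Pygb encodes the brain isoform of glycogen phosphorylase, which responds more to AMP than to phosphorylation. It was less restricted than Pygm, with 241 CPM in WT astrocytes (220 to 263) and 225 CPM in HET astrocytes (207 to 244). The neuronal clusters together had 62.1 and 52.4 CPM, which is 25.8% and 23.3% of the astrocyte level and far above the share that the astrocyte markers reached there. Among neurons the level was higher in neuron.4 (71.9 CPM over both libraries) than in neuron.1 (59.6 CPM), and lowest in neuron.2 (28.9 CPM). The oligodendrocyte cluster had the lowest level of all 12, at 22.7 CPM (20.2 to 25.3). Its interval overlapped those of the endothelial cluster, neuron.2 and the microglial cluster.

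Phka1 and Phkb encode the α and β subunits of phosphorylase kinase, which hold the catalytic γ subunit in check until calcium or phosphorylation releases it. Phka1 had 384 CPM in WT astrocytes (358 to 411) and 475 CPM in HET astrocytes (449 to 503), or 5.34 and 7.03 times the level over all neuronal clusters. Phkb had 452 CPM (424 to 482) and 446 CPM (421 to 473), or 3.43 and 3.44 times the neuronal level. Both were found in most astrocyte nuclei, Phka1 in 61.6% of WT and 70.5% of HET nuclei and Phkb in 69.8% and 70.2%. Outside astrocytes the order of clusters was not the same for the 2 subunits. After astro, Phka1 was highest in neuron.7 (102 CPM), the cluster with the serotonergic markers Tph2 and Slc6a4, and Phkb in the fibroblast and ependymal clusters (241 and 212 CPM).

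The catalytic subunit of the same kinase showed the same location more sharply. Phkg1, the muscle-type γ subunit, had 422 CPM in WT astrocytes and 317 CPM in HET astrocytes, or 40.3 and 50.1 times the neuronal level, and astro held 53.5% and 64.9% of its UMIs. Phkg2, the liver and testis γ isoform, and Phka2, the liver α isoform, went the other way in WT, with 18.9 and 18.0 CPM in astrocytes against 32.7 and 47.3 CPM over all neuronal clusters. In HET the astrocyte level was 0.897 times the neuronal level for Phkg2, with an interval that held 1, and 0.409 times for Phka2. Of the 26 other genes of the pathway with at least 200 UMIs, 5 were highest in astro, 4 of them with an interval above that of the next cluster. The same shares over all genes were not counted.

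**Figure D2:**
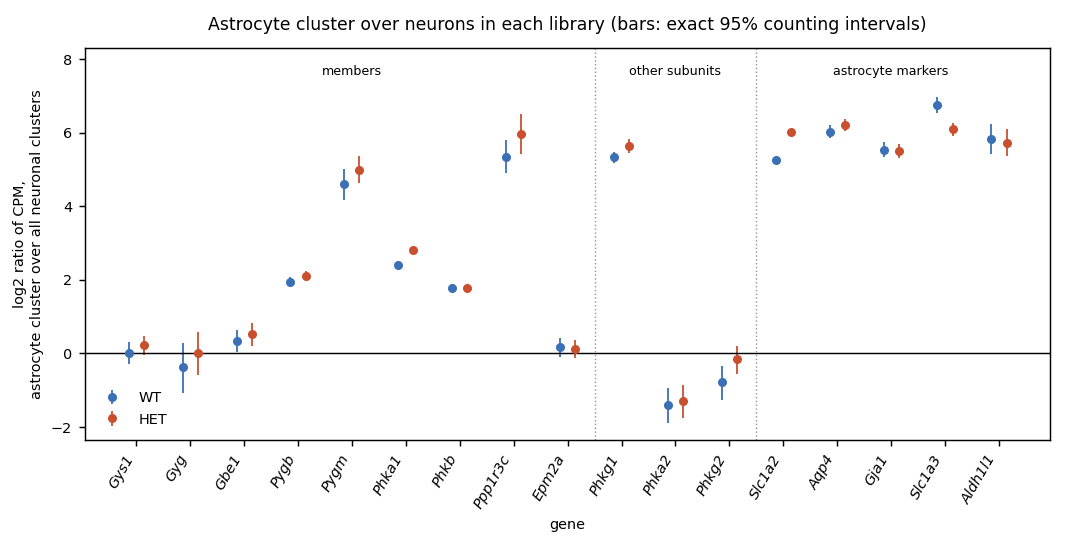
Log2 ratio of CPM of the astrocyte cluster over all neuronal clusters (y axis) in the WT (blue) and HET (red) library, for the members, for 3 other phosphorylase kinase subunits, and for the astrocyte markers (x axis). Bars are exact 95% counting intervals. Ppp1r3c (5.35 in WT, 5.96 in HET), Pygm (4.60 and 5.00) and Phkg1 (5.33 and 5.65) lie near the markers, while Gys1, Gyg and Epm2a lie near 0 and Phka2 below it.

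Gys1 encodes the glycogen synthase of muscle and brain. Its level was alike in astrocytes (49.2 CPM in WT, 40.2 to 59.6) and over all neuronal clusters (48.5 CPM, 46.8 to 50.3). It was low in the oligodendrocyte cluster, at 14.4 CPM in WT (11.5 to 17.8) and 10.1 CPM in HET (8.04 to 12.6), and in the endothelial cluster, at 13.3 and 9.17 CPM. Neighbouring clusters in the order of levels had overlapping intervals throughout. Gys2, the liver isoform, had 82 UMIs in WT and 78 in HET in the whole libraries and was not compared.

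Gyg encodes glycogenin, the self-glucosylating primer. It was highest in the endothelial cluster, at 19.9 CPM over both libraries, on 20 UMIs. The interval there overlapped that of the next cluster, and so did each neighbouring pair in the order. In astro it had 9.46 CPM in WT (5.78 to 14.6) and 10.4 CPM in HET (6.84 to 15.1), so that neighbouring clusters could not be set apart at this depth.

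Gbe1 encodes the branching enzyme. Among the 12 larger clusters it was highest in the endothelial cluster, at 148 CPM in WT (120 to 180) and 162 CPM in HET (121 to 212). The fibroblast cluster followed at 84.3 CPM over both libraries. In astrocytes it stood at 46.4 CPM (WT) and 34.6 CPM (HET), and in neuron.1, the largest neuronal cluster, at 22.1 and 21.3 CPM. A level far above all of these was found in neuron.6, a neuronal cluster with 120 WT nuclei and 5 HET nuclei, where Gbe1 reached 380 CPM in WT (351 to 410, 635 UMIs). There, 102 of the 120 WT nuclei had a Gbe1 UMI, with a median of 4 and a highest value of 35 UMIs in a nucleus. Of the 82 WT nuclei with at least 5 Gbe1 UMIs, 54 were in neuron.6. The 5 HET nuclei of this cluster had 3 Gbe1 UMIs (86.5 CPM, 17.8 to 253), too few for a comparison.

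Epm2a encodes laforin, which removes phosphate from glycogen. It was nearly even, from 44.2 to 61.4 CPM over both libraries in 9 of the 12 clusters, with neuron.7 highest and astro next at 58.1 CPM. The ependymal, endothelial and fibroblast clusters were lower, at 35.3, 18.9 and 18.2 CPM. Nhlrc1, which encodes malin, the ubiquitin ligase that acts with laforin, had 4.26 CPM in WT astrocytes and 4.50 CPM over WT neurons.

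The comparison of genotypes asked whether the RNA of these genes differed in the HET brainstem. Over all nuclei, none of the 9 members was past 1.5-fold, while 6.29% of the 16347 tested genes were past it as higher in HET and 12.7% as lower. The median log2 ratio of the members was −0.12, and that of all tested genes −0.10. The intervals of 5 members lay below 0, that of 1 above 0, and 3 held 0, beside 47.5% of all tested genes below 0 and 27.2% above, so that the 5 are near the share of all genes. In sums over all nuclei, fewer cells of a type and less RNA per cell cannot be told apart.

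Gbe1 had the lowest ratio of the members, with 38.5 CPM in WT (2710 UMIs) and 27.5 CPM in HET (1823 UMIs), a log2 ratio of −0.48 (−0.57 to −0.40). The WT nuclei of neuron.6 held 23.4% of the WT Gbe1 UMIs. Without neuron.6 the levels were 30.2 and 27.5 CPM and the log2 ratio −0.14 (−0.23 to −0.04), close to the median of all genes. With common cluster weights, that is, each cluster entering both libraries with its share of UMIs over the 2 libraries, it was −0.28. Whether the mice or the dissections differed in these neurons was not tested. In neuron.4 Gbe1 also stood lower in HET, at 40.9 CPM against 68.7 CPM, a log2 ratio of −0.75 (−1.06 to −0.43). In that cluster 8 of 114 WT and 5 of 339 HET nuclei held at least 5 Gbe1 UMIs. In neuron.1 the log2 ratio was −0.06 (−0.19 to 0.07).

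**Figure D3:**
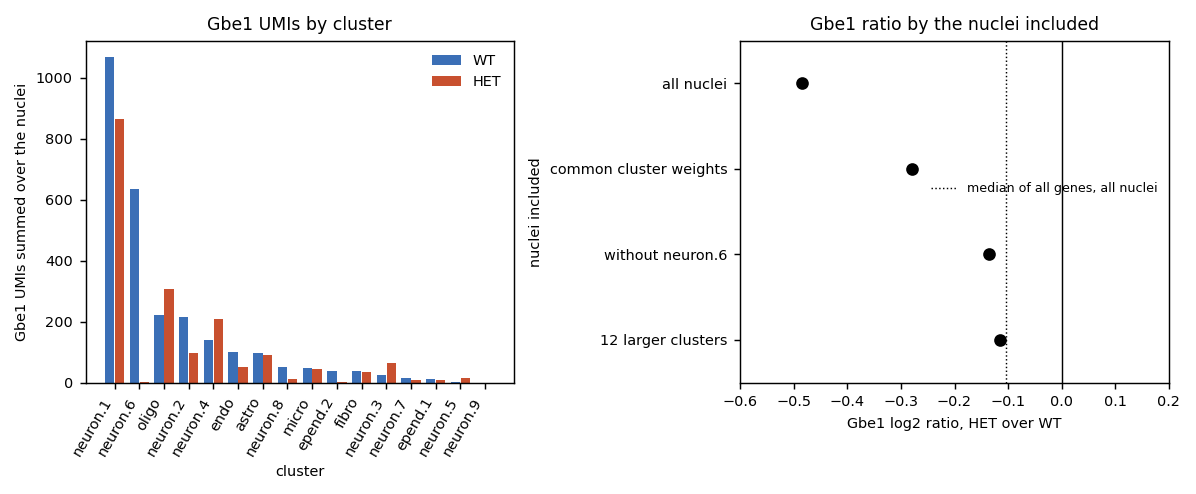
Left, Gbe1 UMIs summed over the nuclei of each cluster (x axis) in the WT (blue) and HET (red) library, where neuron.6 holds 635 UMIs in WT and 3 in HET. Right, the log2 ratio of Gbe1, HET over WT (x axis), for 4 choices of the nuclei included, from −0.48 over all nuclei to −0.14 without neuron.6 and −0.12 with the 12 larger clusters alone. The dotted line is the median of all tested genes.

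Gys1 was lower in HET over all nuclei, with 45.1 CPM (3170 UMIs) in WT and 37.1 CPM (2453 UMIs) in HET, a log2 ratio of −0.28 (−0.36 to −0.21). Of the 11 clusters with at least 20 Gys1 UMIs, 3 had an interval below 0. The log2 ratio was −0.26 (−0.35 to −0.17) in neuron.1, −0.57 (−0.93 to −0.21) in neuron.3 and −0.50 (−0.96 to −0.04) in the oligodendrocyte cluster. In astrocytes it was −0.05 (−0.43 to 0.34), an interval too wide to set the cell types apart. Pygb had 64.5 CPM in WT (4532 UMIs) and 55.8 CPM in HET (3695 UMIs), a log2 ratio of −0.21 (−0.27 to −0.14), with −0.26 (−0.34 to −0.18) in neuron.1. Gyg, at 11.9 and 10.3 CPM, had a log2 ratio of −0.22 (−0.37 to −0.07). In none of the 8 clusters with at least 20 Gyg UMIs did the interval leave out 0.

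Epm2a had 54.2 CPM in WT (3810 UMIs) and 49.7 CPM in HET (3292 UMIs), a log2 ratio of −0.12 (−0.19 to −0.06), which differed by 0.02 from the median of all genes. Its lowest ratio in a cluster was in neuron.2, at −0.63 (−1.02 to −0.25), where WT had 62.3 CPM and HET 40.3 CPM. Phkb stood at 145 CPM in the WT and 147 CPM in the HET library, for a log2 ratio of 0.01 (−0.03 to 0.06). Phka1 had 78.6 and 80.1 CPM, a log2 ratio of 0.03 (−0.03 to 0.08). For both subunits the interval held 0 and lay above the median of all genes. The ratios of both, and that of Epm2a, were below the medians of genes of like length.

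Pygm was the member with the highest ratio over all nuclei, with 3.68 CPM in WT (259 UMIs) and 4.43 CPM in HET (293 UMIs), a log2 ratio of 0.27 (0.02 to 0.51). With common cluster weights it was 0.08, and without neuron.6 it was 0.24 with an interval that held 0. The HET library also held more astrocyte RNA, with all 5 astrocyte markers higher by 0.30 to 0.59 on the log2 scale and their summed level at 192 CPM in WT against 272 CPM in HET. Their part in the Pygm ratio over all nuclei was not tested. Ppp1r3c, with 2.84 and 3.04 CPM on 200 and 201 UMIs, had a log2 ratio of 0.09 (−0.20 to 0.38), and one of −0.09 with common cluster weights.

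**Figure D4:**
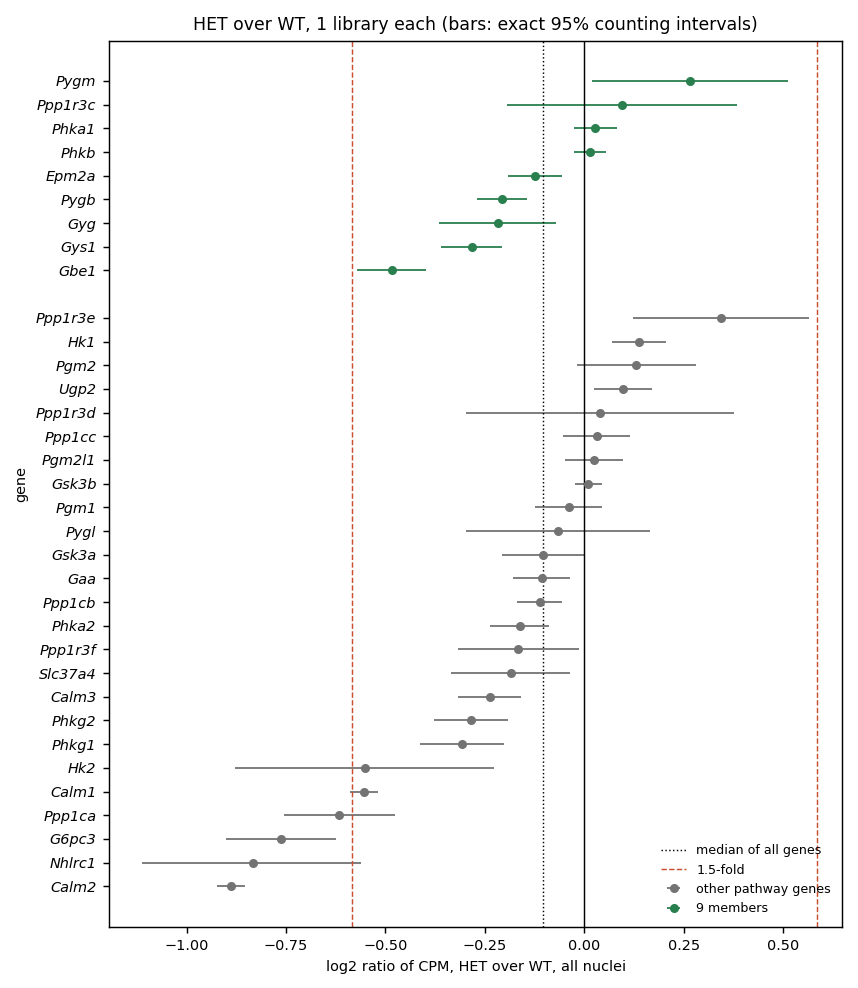
Log2 ratio of CPM over all nuclei, HET over WT (x axis), of the 9 members (green) and of other genes of the pathway with at least 200 UMIs (grey, all but 1 of the 26), with exact 95% counting intervals, from 1 library per genotype. The dotted line is the median of all tested genes (−0.10) and the dashed lines mark 1.5-fold, which no member and 4 other genes lie beyond.

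Within the astrocyte cluster none of the 9 members was past 1.5-fold, against 8.38% of the 13109 genes tested there as higher in HET and 18.4% as lower. The members' median log2 ratio was −0.05 and that of the tested genes −0.11. Phka1 was higher in HET astrocytes, with 1237 UMIs against 811 and a log2 ratio of 0.31 (0.18 to 0.44). Pygm was also higher there, with a log2 ratio of 0.41 (0.03 to 0.79). In the nuclei of the cluster whose reference label was also astrocyte, the ratios were 0.27 (0.14 to 0.40) and 0.38 (0.000906 to 0.77). The astrocyte markers were higher in the same HET nuclei, 5 of 5, by 0.09 to 0.55 on the log2 scale, with summed levels of 3317 CPM in WT against 4455 CPM in HET. Over the same nuclei the choroid plexus markers summed to 638 CPM in WT against 73.0 CPM in HET. The oligodendrocyte markers summed to 2368 and 2309 CPM. The part of any of these in the ratios was not tested. The other 7 members had intervals that held 0 over the whole cluster, from −0.42 (−0.85 to 0.00508) for Gbe1 to 0.13 (−0.75 to 1.04) for Gyg. In the nuclei whose reference label was also astrocyte, Gbe1 had −0.44 (−0.87 to −0.00333), an interval below 0. The intervals of the rest of these members still held 0 there.

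The subunits of phosphorylase kinase did not move together in HET astrocytes. Beside the higher Phka1 (0.31), Phkb had a log2 ratio of −0.02 (−0.14 to 0.11) and Phkg1 one of −0.41 (−0.55 to −0.28), with 892 UMIs in WT and 824 in HET. Over all nuclei Phkg1 had −0.31 (−0.41 to −0.20). Its neuronal level, 2.48% of the astrocyte level in WT and 2.00% in HET, lay near the highest of the astrocyte markers other than Slc1a2 (2.15% and 2.20%), and the source of its neuronal UMIs was not tested. Calm2, a calmodulin gene whose product is the δ subunit, had a log2 ratio of −0.95 (−1.17 to −0.72) in astrocytes. Pygl, the liver phosphorylase, had 32 UMIs in WT astrocytes and 21 in HET ones, a log2 ratio of −0.91 (−1.78 to −0.07).

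In neuron.1, all 9 members were below 0, with a median of −0.11 against −0.09 for the 20477 genes tested there, of which 58.5% were below 0. There 1 member, Ppp1r3c, was past 1.5-fold as lower in HET, with 58 UMIs in WT and 32 in HET, beside 14.2% of the tested genes as lower and 10.0% as higher. In the oligodendrocyte cluster 1 member, again Ppp1r3c, was past it as higher, with 9 and 25 UMIs, beside 10.5% of the 14867 tested genes as higher and 15.2% as lower. The intervals of both held 0. The oligodendrocyte level of Ppp1r3c was 3.02% of the astrocyte level in WT and 6.76% in HET. For the astrocyte markers other than Slc1a3 it ran from 2.92% to 7.80% in WT and from 2.61% to 6.78% in HET. Ppp1r3c was thus near the lowest of these in WT and near the highest in HET. Slc1a3 had 28.8% and 27.7%. Of the 82 pairs of a member and a cluster with at least 20 UMIs, 3 had an interval above 0 and 10 an interval below 0, beside 12.5% and 18.1% of the 138608 such pairs of all genes.

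Phka1 went the other way in the microglial cluster, with 58.8 CPM in WT (65 UMIs) and 37.4 CPM in HET (53 UMIs), a log2 ratio of −0.65 (−1.20 to −0.11). The neuronal markers summed to 1331 CPM in the WT and 1782 CPM in the HET nuclei of this cluster. In its nuclei with a microglial reference label Phka1 had 9 and 5 UMIs. Phkb was higher in HET in neuron.7, with 170.1 CPM against 100.5 CPM and a log2 ratio of 0.76 (0.21 to 1.32). It was lower in neuron.2 (−0.51, −0.78 to −0.25) and in the fibroblast cluster (−0.50, −0.92 to −0.09). Neuron.7 held 46 WT and 33 HET nuclei, and its Phkb values rest on 51 and 66 UMIs.

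The remaining genes of the pathway were a list of 31, of which 26 had at least 200 UMIs. Over all nuclei 4 of the 26 were past 1.5-fold as lower in HET and 0 as higher, beside 12.7% and 6.29% of all tested genes. Their median log2 ratio was −0.11. The 3 lowest were Calm2 (−0.89, −0.92 to −0.85), Nhlrc1 (−0.83, −1.11 to −0.56) and G6pc3 (−0.76, −0.90 to −0.62), a glucose-6-phosphatase. The fourth was Ppp1ca, a catalytic subunit of protein phosphatase 1, at −0.62. Nhlrc1, G6pc3 and Ppp1ca are under 5 kb long, where the median of all tested genes was −0.46. Ppp1r3d (3.27 kb, 0.04) and Ppp1r3e (4.88 kb, 0.34) are also under 5 kb and were not lower in HET. The 3 highest were Ppp1r3e (0.34, 0.12 to 0.57), a targeting subunit of protein phosphatase 1, the hexokinase gene Hk1 (0.14, 0.07 to 0.20) and the phosphoglucomutase gene Pgm2 (0.13, −0.02 to 0.28).

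Malin and laforin act together. Nhlrc1, a gene of 2.29 kb, had 320 UMIs in WT and 169 in HET. The lower level was also seen in neuron.1, where Nhlrc1 had 228 and 103 UMIs (−0.90, −1.25 to −0.56), and in the oligodendrocyte cluster (−1.04, −1.91 to −0.20). Epm2a, of 116 kb, had −0.12 over all nuclei. The median ratio of all tested genes was −0.46 under 5 kb and 0.08 from 100 to 200 kb, and the difference between the 2 genes was not tested. Of the other targeting subunits, Ppp1r3d had a log2 ratio of 0.04 and Ppp1r3f one of −0.17. Ppp1r3a, Ppp1r3b and Ppp1r3g had 5, 111 and 52 UMIs over both libraries and were not counted. Phka2 (−0.16), Phkg2 (−0.29) and Pygl (−0.07) stayed within 1.5-fold over all nuclei.

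The ratios of all genes moved with gene length in these libraries. The median log2 ratio rose from −0.46 over the 1853 tested genes under 5 kb to 0.13 over the 1022 genes of 200 kb or more. Ppp1r3c (4.92 kb, 0.09) and Pygm (14.1 kb, 0.27) stood above the medians of their length bands, −0.46 and −0.23. Gys1, Gyg and Pygb, of 20 to 50 kb, stood below theirs (−0.12), and Gbe1 (256 kb, −0.48) stood furthest below its own (0.13). Phkb (220 kb, 0.01) was also below that band, and Phka1 (130 kb, 0.03) and Epm2a (116 kb, −0.12) below theirs (0.08). The interval of Phka1 held the median of its band, and those of Phkb and Epm2a lay below theirs. Spearman's rho of ratio and length across genes, which are not independent replicates, was 0.37 over the 16098 tested genes with a position and −0.42 over the 9 members. The share of mitochondrial UMIs also differed, at medians of 0.343% in WT and 0.458% in HET, as did that of ribosomal protein genes, at 0.696% and 0.407%. The part of length, and of what differed with it between the libraries, was not tested.

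**Figure D5:**
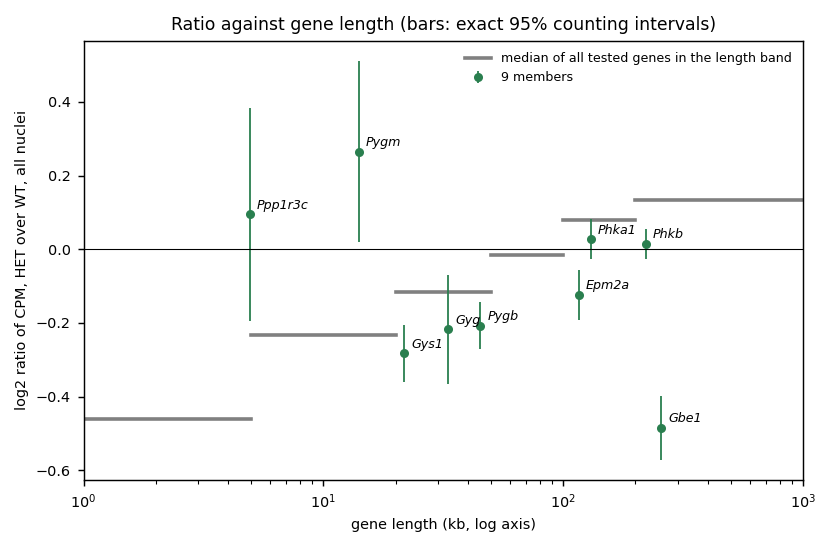
Log2 ratio of CPM over all nuclei, HET over WT (y axis), against gene length in kb (x axis, log scale), for the 9 members with exact 95% counting intervals. Grey lines give the median ratio of all tested genes in each length band, from −0.46 under 5 kb to 0.13 from 200 kb. Pygm and Ppp1r3c lie above their bands and Gbe1 furthest below.

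For each member the 3 genes most like it were taken by Pearson's r of log2(CPM + 1) over 24 points, the 12 clusters in each library. The points of a library share its preparation, and those of a cluster share its depth, so the values are descriptions. Ppp1r3c was most like Trps1 (r = 0.91), the growth factor receptor gene Fgfr3 (0.90) and Sdc4 (0.88). Pygm was most like Id2 (0.90), Smarcd2 (0.90) and the Toll-like receptor gene Tlr3 (0.89). Of the 3 nearest to Phka1, A730056A06Rik (0.89) and Camk2g (0.88) are given. Phkb was nearest to Soat1 (0.91), Rhoq (0.86) and Gm49708 (0.84), and Pygb to Gsdme (0.86), Gm32618 (0.85) and Mpp6 (0.84).

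The other members had neighbours of other kinds. Gbe1 was nearest to the endothelial transporter gene Abcg2 (0.88), Ostf1 (0.87) and Ltbp4 (0.84). Gys1 was nearest to Stambpl1 (0.89), Gm47423 (0.88) and Lrtm1 (0.88), and Epm2a to Apc (0.87), Kif1a (0.87) and Otud7a (0.85). Gyg had the weakest neighbours, Tax1bp3 (0.70), Vwf (0.69) and Dleu7 (0.68). Between members, the highest r were those of Phkb with Pygm (0.77) and with Phka1 (0.76), and of Pygm with Ppp1r3c (0.76). The lowest was that of Gbe1 with Epm2a (−0.56).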

How the data were processed

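Nuclei from frozen brainstem were profiled on the 10x 3′ v3.1 platform. The authors deposited raw UMI counts per gene and nucleus, made with Cell Ranger (version and use of intronic reads not given in the sources used here) on its mm10 reference and filtered in Seurat 4.1. The deposited percent values (mitochondrial and ribosomal protein genes), the doublet score, whose caller the authors do not name, the clusters and the reference labels were used as given. No doublet caller was run.

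Counts were summed over all nuclei or a cluster and divided by its total (CPM). Intervals were exact Poisson (CPM), Clopper-Pearson (shares) and conditional binomial (ratios). Nuclei were thinned to 1000 UMIs by expectation, and none was shallower. Of 25556 genes, 24908 had 1 position in GENCODE vM21. Python 3.11.15 with numpy 2.4.6, scipy 1.17.1, pandas 2.3.3 and matplotlib 3.10.9 was used, and the ratios were tested on simulated counts.

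Members and lists were chosen with earlier results of these data known. Named were all members, isoforms and subunits, the 3 highest and 3 lowest other pathway genes with at least 200 UMIs, and the 3 genes most like each member; 1 gene of the pathway is counted in its list but not reported here. The alternatives were cluster weights, scaling, totals, depth, doublet scores, labels, minimum counts and left-out clusters. With 1 library per genotype no test was made.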

Additional observations from a re-analysis of the deposited data

Results flagged for a closer look

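Ratios of the same gene on opposite sides of 0 in different clusters, each with an interval without 0, were found for 2 members. Phka1 had a log2 ratio of 0.31 in the astrocyte cluster and −0.65 in the microglial cluster. Phkb had 0.76 in neuron.7, −0.50 in the fibroblast cluster and −0.51 in neuron.2. A reference label of the same cell type was given to 108 of 405 nuclei of the microglial cluster, with 14 of its 118 Phka1 UMIs, and to 40 of 266 of the fibroblast cluster. Each value compares 1 WT with 1 HET library, and the difference between clusters itself was not tested.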

How the results depend on the processing

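The count of members past 1.5-fold was 0 over all nuclei and 0 in astrocytes under each alternative run. The 2-fold threshold was applied over all nuclei only, and it could give nothing but 0 once no member passed 1.5-fold. The median log2 ratio of the members went from −0.12 to −0.020 when the median of all genes was set to 0, and the number of other pathway genes past 1.5-fold from 4 to 7 with no minimum of UMIs. Of 99 values of single members over all nuclei under an alternative, 88 stayed within the counting interval of the reported value and 11 did not. The sign changed for Phkb (−0.01) and Ppp1r3c (−0.09), with common cluster weights. Gbe1 ranged from −0.53 to −0.12, the latter with the 12 larger clusters alone. In astrocytes all 63 such values stayed within the counting interval, 4 with a change of sign (Gys1, Pygb, Phkb and Gyg), with Phka1 from 0.27 to 0.42 and Pygm from 0.38 to 0.54. Both tallies include the setting without a minimum of UMIs. That setting could not change a member's value, since every member passed the minimum. Leaving out neuron.6 and keeping the 12 larger clusters were added after seeing the data. No paired analysis was possible with 1 library per genotype, and no test was made. With 1 mouse per genotype, the spread between mice is unknown, and genotype cannot be told apart from other differences between these 2 animals or their dissections.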

Other observations

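The following genes of the pathway were chosen after their values were seen. The phosphoglucomutase gene Pgm1 and the gene of UDP-glucose pyrophosphorylase, Ugp2, which make the precursor of glycogen, were highest in astrocytes, at 123 and 144 CPM over both libraries, while the neuronal level was 32.5 and 33.7 CPM in WT. In HET astrocytes Pgm1 was higher (104 CPM in WT, 138 CPM in HET, log2 ratio 0.41, 0.17 to 0.66) and Ugp2 lower (157 and 133 CPM, −0.23, −0.45 to −0.01). Pgm2l1, a brain enzyme that makes glucose-1,6-bisphosphate, was lower in astrocytes (12.8 CPM in WT) than over all neuronal clusters (50.8 CPM). The hexokinase gene Hk2 was highest in the microglial cluster, at 64.6 CPM, and Ppp1cc, a catalytic subunit of protein phosphatase 1, in oligodendrocytes, at 110 CPM. The liver phosphorylase gene Pygl was highest in the ependymal cluster epend.1, at 64.4 CPM on 42 UMIs, against 11.2 CPM in astrocytes.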
